A study of Homo sapiens with 3 samples.

Results

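From the deposited expression values, 10 keratin genes were taken by name. They comprised the basal and stratified keratins KRT5, KRT14, KRT15, KRT6A and KRT17, the simple keratins KRT8, KRT18, KRT7 and KRT19, and the hair keratin KRT81, which made 10 of the 18856 genes listed in at least 1 library. All 10 were listed in both libraries of HBE cells and 9 of 10 in the library of A549 cells, where KRT14 was not listed. The cells were HBE, a line of human bronchial epithelium, and A549, a line from an adenocarcinoma of the lung. HBE was sequenced by LIEA RNA-seq and by Smart-seq2, and A549 by LIEA RNA-seq, which gave 3 libraries. The labels name no added gene and no treatment for either line, and every library started from 10 pg of polyA+ mRNA, diluted from the mRNA of a bulk culture. In the LIEA (low-input, equal-amplification) method, fragmented mRNA was ligated to adapters, reverse-transcribed, amplified and sequenced on an Ion Torrent chip, whereas Smart-seq2 amplified cDNA primed with oligo-dT before Illumina sequencing. The A549 and HBE libraries made by LIEA were compared to ask how the lines differ, and both HBE libraries to ask how the methods differ on the same RNA.

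Keratins are the intermediate filament proteins of epithelial cells. A keratin filament is built from pairs that hold a type I and a type II chain, so the cell needs both. Basal cells of stratified and bronchial epithelium are known for the type II keratin KRT5 with the type I keratins KRT14 and KRT15, and KRT6A and KRT17 are known as keratins of activated, wounded or fast-growing epithelium. Single-layered epithelia carry KRT8 with KRT18, and many of them, ducts and airways included, add KRT7 and KRT19. KRT81 is a type II keratin of the hair shaft that is also known from cancer cell lines. Human keratin genes lie in a type II cluster on chromosome 12 and a type I cluster on chromosome 17, with KRT18 as the type I gene within the type II cluster.

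On GRCh37, KRT5 lies at chr12:52908359-52914314 and KRT6A at chr12:52880960-52887041, both on the minus strand. KRT7 lies at chr12:52626304-52645970 on the plus strand and KRT81 at chr12:52679697-52685318 on the minus strand, inside the span of KRT86 on the plus strand. KRT8, at chr12:53290971-53343738 on the minus strand, and KRT18, at chr12:53342655-53346690 on the plus strand, overlap at their ends. The remaining members lie on the minus strand of chromosome 17, with KRT15 at chr17:39669997-39678781, KRT19 at chr17:39679869-39684560, KRT14 at chr17:39738531-39743147 and KRT17 at chr17:39775694-39781094. The exons of the members' canonical transcripts did not overlap each other, and whether reads were counted by strand was not stated.

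Several members have near-identical neighbours, which matters for values that were counted per gene. The coding sequences of KRT6A and KRT6B were 97.5% identical, and those of KRT6A and KRT6C 97.9%. The following windows of 60 coding bases, in exon 1 of 9 of each gene, show the 5 positions that tell the KRT6 genes apart there, in capitals. They lie at chr12:52886478-52886537 (KRT6A), chr12:52845368-52845427 (KRT6B) and chr12:52867027-52867086 (KRT6C), all read 5′ to 3′ along the minus strand of GRCh37. The KRT6B and KRT6C windows were the same, so a read inside it fits both genes equally.
KRT6A: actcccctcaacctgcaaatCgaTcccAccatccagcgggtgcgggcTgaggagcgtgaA
KRT6B: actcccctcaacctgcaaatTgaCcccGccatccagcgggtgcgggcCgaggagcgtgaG
KRT6C: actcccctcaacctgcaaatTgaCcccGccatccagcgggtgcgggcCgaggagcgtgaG

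The type I keratin KRT17 stands further from its relatives, with 85.2% coding identity to KRT14 and 79.1% to KRT16. Its window in exon 1 of 8, at chr17:39780336-39780395, is shown beside those of KRT16 at chr17:39768416-39768475 and KRT14 at chr17:39742568-39742627. They are set side by side because KRT17 lay far above the other genes in level in both HBE libraries. Capitals mark the 25 of 60 positions that vary among the 3 genes, all on the minus strand.
KRT17: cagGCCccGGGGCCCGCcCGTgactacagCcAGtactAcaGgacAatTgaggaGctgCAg
KRT16: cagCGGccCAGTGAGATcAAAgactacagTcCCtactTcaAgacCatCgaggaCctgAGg
KRT14: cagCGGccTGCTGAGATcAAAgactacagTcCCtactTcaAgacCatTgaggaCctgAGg

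For KRT81 the nearest relative was KRT86, with 94.2% coding identity, followed by KRT83 with 93.3%. The windows below lie at chr12:52681795-52681854 on the minus strand for KRT81, in exon 5 of 9, at chr12:52699102-52699161 on the plus strand for KRT86 and at chr12:52710670-52710729 on the minus strand for KRT83. Capitals mark the 7 positions that vary, and KRT81 differed from KRT86 at 5 of them and from KRT83 at 6.
KRT81: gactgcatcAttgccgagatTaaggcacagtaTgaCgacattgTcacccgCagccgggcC
KRT86: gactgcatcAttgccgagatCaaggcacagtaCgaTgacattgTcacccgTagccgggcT
KRT83: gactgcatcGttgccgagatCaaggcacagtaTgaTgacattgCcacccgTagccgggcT

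Counted over whole transcripts, 44.6% of the stretches of 50 bases in KRT81 also occurred in another gene, mostly KRT86. The share was 39.2% for KRT6A, which shared mostly with KRT6C and KRT6B, and 39.2% for KRT8, which shared with 36 other genes, nearly all of them processed pseudogenes. For KRT18 it was 36.7%, with 45 other genes, and for KRT14 it was 24.2%, mostly KRT16 and its pseudogenes. KRT17 shared 17.4% of its stretches, chiefly with pseudogenes and unnamed genes, and KRT5 4.52%. KRT15, KRT7 and KRT19 were nearly free of shared stretches, at 1.02%, 1.08% and 1.79%. How reads that map to several genes were assigned was not stated, so the levels of KRT81, KRT6A, KRT8, KRT18 and KRT14 are the least certain in this respect.

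As recovered from the values, the HBE LIEA library held 4605855 mapped reads, the Smart-seq2 library 9845150 and the A549 library 4154060. For each condition 1 library was analysed here, and the study's further LIEA library of HBE made as a biological replicate was not, so no difference has a replicate check and none was tested. The 95% intervals cover the counting error of reads only. PCR copies 1 molecule into several reads, so the intervals can be too narrow for the error in counting molecules. The unit is rpkM, reads per kilobase of transcript per 1000000 mapped reads, which sets levels of different genes on a scale per length. A gene without reads is not listed, and 3 reads were taken as its limit. Of 6 basal airway markers, 5 had at least 10 reads in HBE LIEA, 6 in Smart-seq2 and 3 in A549. The label of A549 names alveolar cells, and of 7 alveolar type 2 markers 2 had at least 10 reads there, SFTPB with 20 and ABCA3 with 382, against 21 and 73 in HBE LIEA. NAPSA was listed in A549 alone with 7 reads, and the surfactant genes SFTPC, SFTPA1 and SFTPA2 were not listed in any library. The 4 general epithelial markers EPCAM, CDH1, CLDN4 and CLDN7 had at least 10 reads in every library.

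The basal pair was headed by its type II chain in HBE cells. KRT5 was at log2 rpkM 9.11 (5854 reads) in HBE LIEA, 8.67 (9219 reads) in Smart-seq2 and 0.91 (18 reads) in A549. Both HBE libraries thus placed KRT5 among the top 149 genes, while in A549 it ranked 11146 of 16711. KRT14, the classical partner of KRT5, was at 2.55 (44 reads) in HBE LIEA and 4.68 (412 reads) in Smart-seq2, and was not listed in A549, where 3 reads would correspond to a log2 rpkM of -1.18. KRT14 was therefore low even where KRT5 was high, and rpkM of KRT5 was 94.5 times that of KRT14 (70.3 to 127) in HBE LIEA and 15.9 times (14.4 to 17.5) in Smart-seq2. KRT15, a type I keratin of basal and progenitor cells, was at 5.15 (300 reads) in HBE LIEA, 4.25 (344 reads) in Smart-seq2 and 2.20 (35 reads) in A549. It was the highest of the basal group in A549, although its interval of 3.19 to 6.37 rpkM overlapped that of KRT17.

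Of the 10 genes, the keratins of activated epithelium differed most between the methods. KRT6A was at log2 rpkM 4.31 (224 reads) in HBE LIEA, 8.41 (8187 reads) in Smart-seq2 and -0.35 (8 reads) in A549. KRT17, a type I chain that pairs with KRT6A and KRT5, was at 10.10 (7954 reads) in HBE LIEA, 12.47 (87997 reads) in Smart-seq2 and 0.99 (13 reads) in A549. KRT17 was the highest of the 10 keratins in both HBE libraries, ranking 34 of all genes in LIEA and 4 in Smart-seq2, where it took 0.894% of all mapped reads. In A549 it ranked 11002. The type II genes KRT5 and KRT6A reached 0.503 and 0.0181 of the rpkM of KRT17 in HBE LIEA, and 0.0716 and 0.0598 in Smart-seq2.

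The simple keratins were high in every library. KRT8 was at log2 rpkM 8.98 (5012 reads) in HBE LIEA, 10.07 (22737 reads) in Smart-seq2 and 11.95 (35337 reads) in A549. Its type I partner KRT18 was at 9.54 (5021 reads), 10.82 (26181 reads) and 12.07 (26214 reads) in the same order. The pair ranked 5 (KRT18) and 6 (KRT8) of all genes in A549, and the ratio of KRT8 to KRT18 in rpkM was closest to 1 there, at 0.920 (0.905 to 0.935), against 0.681 (0.655 to 0.708) in LIEA and 0.593 (0.582 to 0.603) in HBE Smart-seq2. KRT7, the type II keratin of ducts and glands, was at 9.42 (5382 reads) in HBE LIEA, 9.65 (13419 reads) in Smart-seq2 and 10.99 (14360 reads) in A549. KRT19, the smallest type I keratin, was at 8.39 (2280 reads), 7.92 (3498 reads) and 7.94 (1498 reads) in that order. KRT19 varied least of the 10 genes and was the lowest of the simple keratins in all 3 libraries.

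The hair keratin KRT81 stood beside the simple keratins in level. It was at log2 rpkM 9.44 (6105 reads) in HBE LIEA, 10.67 (30703 reads) in Smart-seq2 and 10.69 (13081 reads) in A549. Its levels in HBE Smart-seq2 and in A549 were alike, at 1633 rpkM (1615 to 1651) and 1649 (1621 to 1677), although these libraries differ in both method and line. KRT81 exceeded KRT86 in rpkM 4.84 times (4.57 to 5.13) in HBE LIEA, 4.50 times (4.33 to 4.68) in A549 and 11.6 times (11.2 to 12.1) in Smart-seq2.

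**Figure D1:**
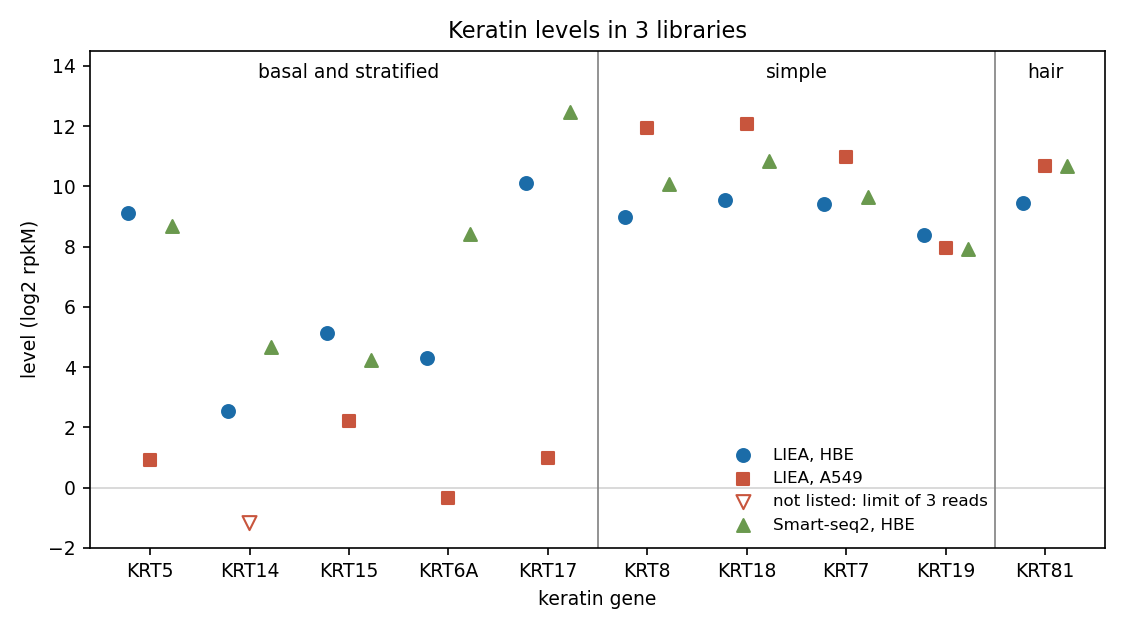
Level of each of the 10 keratins (vertical axis, log2 rpkM) in the 3 libraries, 1 point per library, grouped as basal and stratified, simple and hair keratins, with an open triangle at the 3-read limit where a gene was not listed. The basal genes reach at most 2.20 in A549, whereas no simple keratin falls below 7.92 in any library.

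The order of the levels within a library followed from these values. In HBE LIEA it ran KRT17, KRT18, KRT81, KRT7, KRT5, KRT8, KRT19, KRT15, KRT6A and KRT14, and of these neighbours only KRT81 and KRT7 had overlapping counting intervals. In Smart-seq2 it ran KRT17, KRT18, KRT81, KRT8, KRT7, KRT5, KRT6A, KRT19, KRT14 and KRT15, with all neighbouring intervals apart. In A549 it ran KRT18, KRT8, KRT7, KRT81 and KRT19, all apart, followed by KRT15, KRT17, KRT5 and KRT6A, where each interval overlapped the next. KRT17 and KRT18 thus headed the list in both HBE libraries, and the place of KRT6A moved from ninth in LIEA to seventh in Smart-seq2.

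Summed over the group, the basal keratins came to 1710 rpkM in HBE LIEA, 6469 in HBE Smart-seq2 and 9.23 in A549. The simple keratins came to 2272, 3929 and 10534 rpkM. The basal share of both groups together was 42.9% (42.4 to 43.5) in HBE LIEA, 62.2% (62.0 to 62.4) in Smart-seq2 and 0.0876% (0.0674 to 0.108) in A549. The larger basal share in Smart-seq2 went mostly with KRT17, which held 23.5% of the rpkM of the 10 keratins in LIEA and 47.2% in Smart-seq2. KRT6A held 0.424% and 2.82%, and KRT5 11.8% and 3.38%. In A549, KRT18 and KRT8 took 35.3% and 32.5%. Together the 10 genes held 0.829% of the mapped reads in HBE LIEA, 2.06% in Smart-seq2 and 2.18% in A549, and they held 92.4%, 94.4% and 94.7% of all reads on keratin genes.

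**Figure D2:**
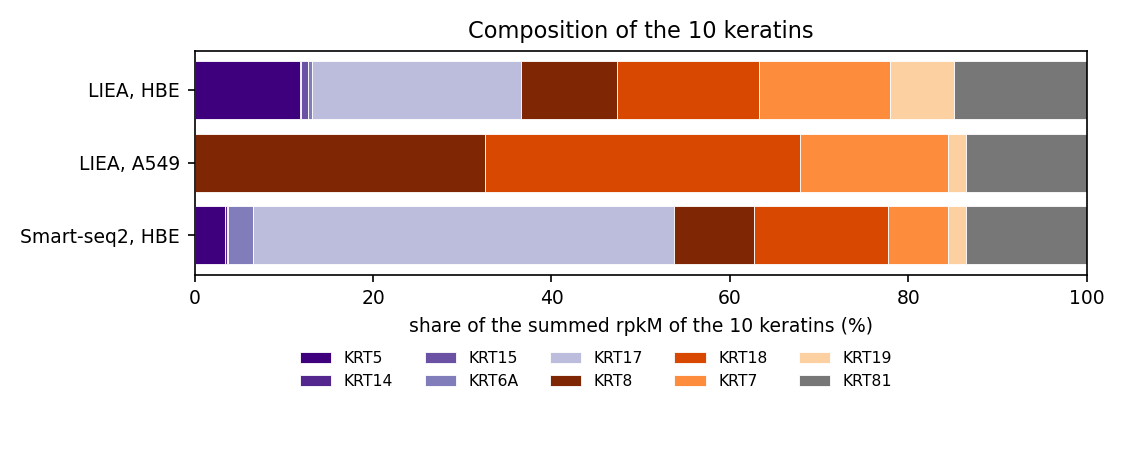
Share of each of the 10 keratins in their summed rpkM (horizontal axis, percent, 1 bar per library), with basal and stratified keratins in purple, simple keratins in orange and KRT81 in grey. KRT17 fills 23.5% of the bar in HBE LIEA and 47.2% in Smart-seq2, and the purple part is too thin to see in A549.

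Since filaments pair a type II with a type I chain, the summed levels of the types were set side by side. The 5 type II members (KRT5, KRT6A, KRT7, KRT8 and KRT81) had 1.11 times the rpkM of the 5 type I members in HBE LIEA (1.09 to 1.13). The ratio was 1.68 in A549 (1.65 to 1.70) and 0.547 in Smart-seq2 (0.542 to 0.552). Without KRT81, a choice made after seeing the data, it was 0.795 in HBE LIEA, 1.32 in A549 and 0.337 in Smart-seq2, so the side of 1 on which HBE LIEA fell rested on this gene.

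The A549 line had less of every basal keratin than the HBE line under the same LIEA method. KRT17 was 552-fold lower, at a log2 difference of -9.11 (95% interval -10.02 to -8.33), and KRT5 293-fold lower, at -8.20 (-8.95 to -7.53). Of the 13654 genes with at least 1 rpkM in either library, 7 were lower by more than KRT17, and 15 by more than KRT5. In these and later counts of genes beyond a keratin, an unlisted gene stood at its bound, so more genes may lie beyond. KRT6A was 25.3-fold lower (-4.66, -5.89 to -3.66), KRT15 was 7.73-fold lower (-2.95, -3.50 to -2.44), and KRT14 at least 13.2-fold lower against the limit of 3 reads. Thus 5 of 5 basal keratins were lower by at least 4-fold, where 7.53% of the 13654 genes were, and their median difference was -4.66 against -0.11 over all genes. KRT14 and KRT6A reached 1 rpkM only in HBE, so they entered through the library where they were high. This count and median therefore follow in part from the filter on level. In RNA from whole cultures, fewer cells of a type and less RNA per cell cannot be told apart.

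The simple keratins split in the same comparison. KRT8 was 7.82-fold higher in A549 (2.97, 2.92 to 3.01) and KRT18 5.79-fold higher (2.53, 2.49 to 2.58), and 839 and 1076 genes were higher by more. KRT7 was 2.96-fold higher (1.56, 1.52 to 1.61), whereas KRT19 was 1.37-fold lower (-0.46, -0.55 to -0.36). KRT81 was 2.38-fold higher (1.25, 1.20 to 1.29). Of the 4 simple keratins 2 were higher by at least 4-fold, where 10.4% of all genes were, none was lower by that much, and the group's median was 2.05. Over all 10 keratins, 7 passed 4-fold in either direction against 17.9% of genes, counting KRT14 and KRT6A, which entered only through HBE. The median difference of the 10967 genes with at least 1 rpkM in both libraries was -0.17, and relative to it the basal keratins lay between -8.94 and -2.78, KRT8 at 3.14, KRT18 at 2.70, KRT7 at 1.73, KRT81 at 1.42 and KRT19 at -0.29.

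Markers of other cell types also differed between the lines. The basal airway markers summed to 352 rpkM in HBE LIEA and 96.7 in A549, with NGFR and SERPINB5 not listed in A549 and TP63 at log2 rpkM 4.96 and 2.14. The general epithelial markers summed to 363 and 36.4 rpkM. Of 6 mesenchymal markers, 3 had at least 10 reads in HBE LIEA and 5 in A549, and their sums were 18.0 and 1199 rpkM, with VIM not listed in HBE and COL1A2 listed in neither. FN1 and VIM, at log2 rpkM 9.45 and 8.91 in A549, made up nearly all of the larger sum, while CDH2 was at 2.92 and 3.14 and COL1A1 lay the other way, at 2.68 and 1.92. The goblet markers summed to 3.63 and 100.9 rpkM, with MUC5B at 122 and 4964 reads, and the ciliated markers to 3.09 and 29.0 rpkM. Among the ciliated markers, CAPS had 18 and 51 reads, and TPPP3 had 102 in A549 and was not listed in HBE LIEA. FOXJ1 lay the other way, with 8 reads in HBE LIEA, and was not listed in A549. The part of these cell types in the keratin values was not tested.

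**Figure D3:**
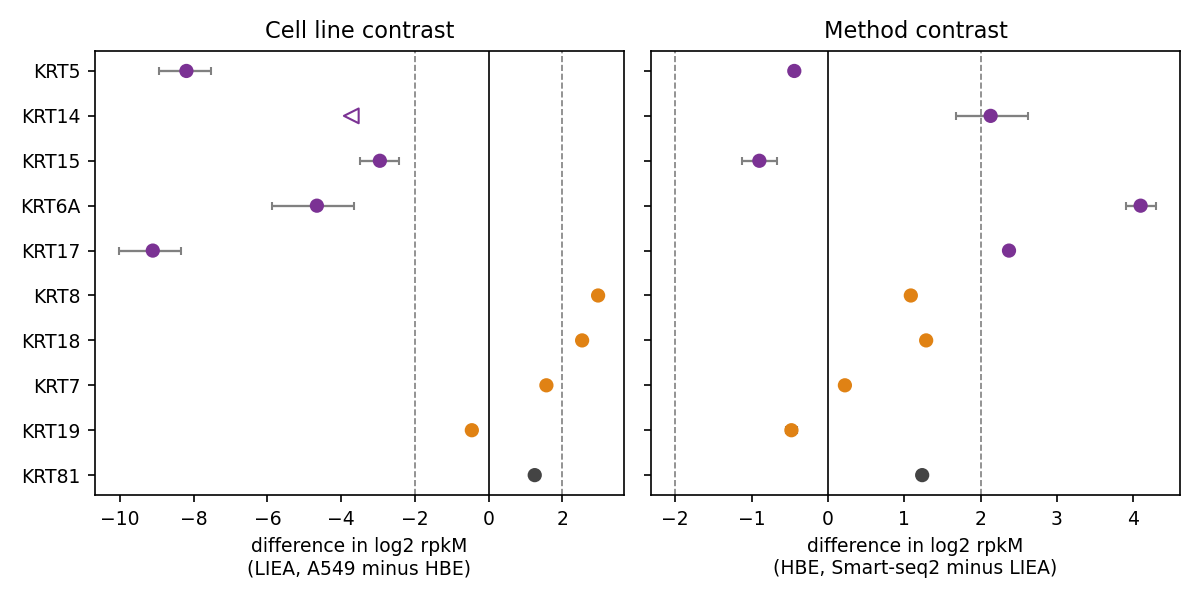
Difference in log2 rpkM of each keratin (horizontal axes) between A549 and HBE under LIEA on the left and between Smart-seq2 and HBE LIEA on the right, with 95% counting intervals as bars, dashed lines at 4-fold, basal keratins in purple, simple ones in orange, KRT81 in grey, and an open triangle for the bound of KRT14. The basal genes lie at -2.95 or below on the left, and on the right KRT6A stands out at 4.10.

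Smart-seq2 and LIEA of the same HBE RNA gave unlike keratin levels. KRT6A was 17.1-fold higher in Smart-seq2, at a log2 difference of 4.10 (3.90 to 4.29), and 37 of 12790 genes were higher by more. KRT17 was 5.18-fold higher (2.37, 2.34 to 2.41) and KRT14 4.38-fold higher (2.13, 1.68 to 2.61). KRT5 and KRT15 lay the other way, at 1.36-fold lower (-0.44, -0.49 to -0.39) and 1.86-fold lower (-0.90, -1.13 to -0.67). The basal group therefore did not lie on 1 side, with 3 of 5 higher by at least 4-fold and none lower, and its median was 2.13. KRT14 lost this call on the log2(rpkM + 1) scale, at 1.96, and after scaling to equal sums, at 1.93.

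No simple keratin passed 4-fold between the methods. KRT18 was 2.44-fold higher in Smart-seq2 (1.29, 1.24 to 1.33) and KRT8 2.12-fold higher (1.09, 1.04 to 1.13). KRT7 differed by 0.22 (0.18 to 0.27), and KRT19 was 1.39-fold lower (-0.48, -0.55 to -0.40). KRT81 was 2.35-fold higher (1.23, 1.19 to 1.27). Among the 10 keratins 3 were higher by at least 4-fold where 5.54% of the 12790 genes were, and 0 were lower where 15.1% were. In either direction, 20.7% of genes passed. The median over the keratins was 1.16 and over all genes -0.09, and the median of genes with at least 1 rpkM in both libraries, 0.01, left the scale as it was. The general epithelial markers summed to 363 rpkM in LIEA and 1185 in Smart-seq2, and the basal airway markers to 352 and 377. Within the former, EPCAM, CLDN4 and CLDN7 were higher in Smart-seq2, while CDH1 was at log2 rpkM 5.84 in LIEA and 5.81 in Smart-seq2. Within the latter, SERPINB5 was at log2 rpkM 4.78 in LIEA and 8.14 in Smart-seq2, while ITGB4 was at 7.72 and 5.45 and NGFR at 5.12 and 2.97. TP63, at 4.96 and 3.84, and ITGA6, at 5.58 and 4.83, were also lower in Smart-seq2, and PDPN had no reads in LIEA and 14 in Smart-seq2. The part of these markers in the keratin values was not tested. Method, sequencer, reads per library and the mapping allowance for errors changed together and cannot be told apart. Both comparisons share the LIEA library of HBE, so a count that was high or low in it enters both.

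**Figure D4:**
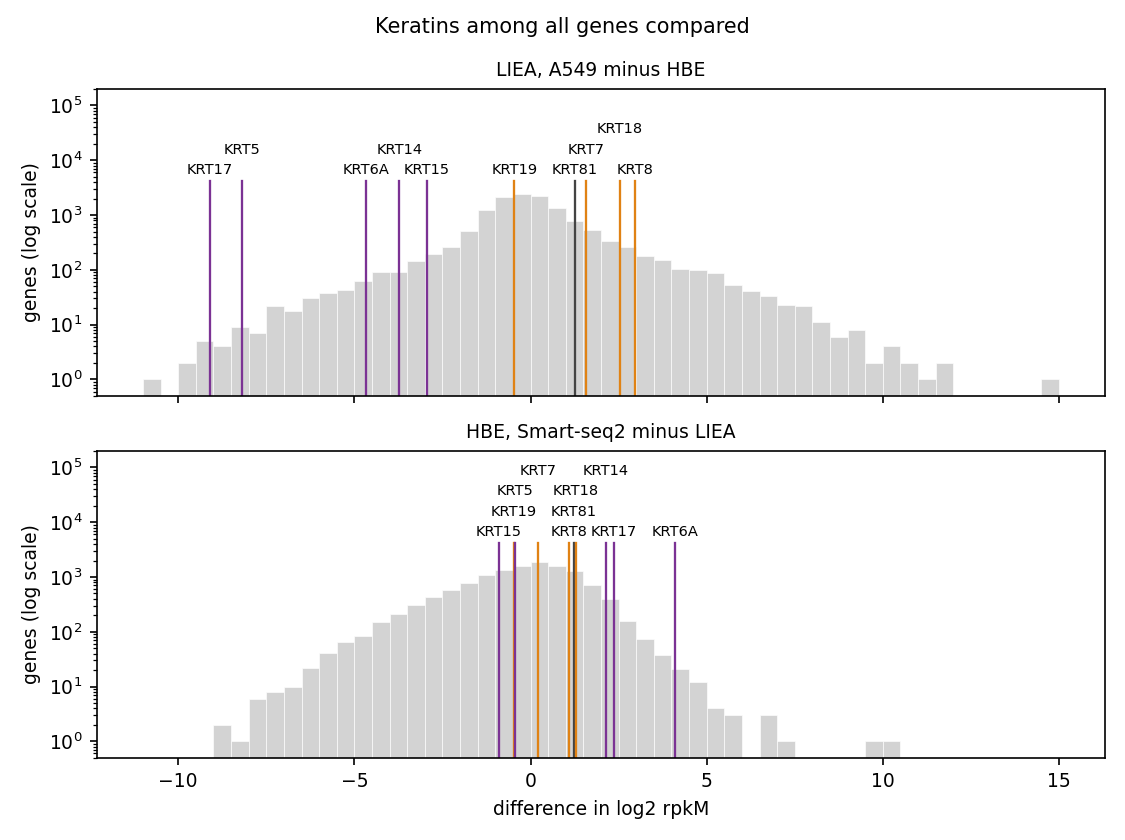
Number of genes (vertical axes, log scale) by difference in log2 rpkM (horizontal axis) for A549 against HBE on top and Smart-seq2 against LIEA below, with lines at the 10 keratins, basal in purple, simple in orange and KRT81 in grey, and KRT14 drawn at its bound on top. KRT17 and KRT5 lie in the far left tail on top, with 7 and 15 genes beyond them, and KRT6A lies in the right tail below, with 37 genes beyond it. Unlisted genes are placed at their bound, so more genes may lie beyond.

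The method differences were also set beside those of genes of like GC content. The keratin transcripts ran from 1467 to 2450 nt and their GC content from 55.8% to 62.3%. Genes within 2.5 GC points of KRT6A had a median method difference of -0.45 with a 90th percentile of 1.12, against 4.10 for KRT6A itself. The genes near KRT17 had a median of -0.73 and a 90th percentile of 0.85, against 2.37 for KRT17, and those near KRT14 had -0.69 and 0.91 against 2.13. KRT18, KRT8 and KRT81 also lay above the 90th percentiles of their GC neighbours, which were 1.05, 0.96 and 0.82. KRT5, KRT7, KRT15 and KRT19 lay between the 10th and 90th percentiles of theirs. A GC value was at hand for 92.1% of the 10695 genes.

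Sums over related genes were taken because shared reads may have been split within a family, and they kept these directions. KRT6A, KRT6B and KRT6C together went from 283 reads in HBE LIEA to 14 in A549, a difference of -4.17 in log2 of the summed rpkM, and to 10466 in Smart-seq2, a difference of 4.11. KRT14, KRT16 and KRT17 together differed by -8.76 for A549 and 2.37 for Smart-seq2, but KRT17 held nearly all of these reads in HBE, so the sum says nothing of KRT14. KRT81 with KRT83, KRT85 and KRT86 differed by 1.28 and 1.04. Few reads fell on keratin pseudogenes, and each of the 5 that were listed had at most 9 reads in any library. Of the pseudogenes of KRT8 and KRT18, only KRT8P41 and KRT18P55 were listed. Reads of a pseudogene missing from the reference could only fall on a related gene or be lost, so these counts cannot show how much was shared.

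Most other keratins were low. Of 31 listed, 15 reached 1 rpkM in at least 1 library and 16 did not. The highest was the hair keratin KRT86, at log2 rpkM 7.16 in HBE LIEA, 8.52 in A549 and 7.13 in Smart-seq2, followed in both HBE libraries by KRT80, a widespread type II keratin, at 6.28 in LIEA and 7.05 in Smart-seq2. In A549, KRT80 was at 5.06, below KRT83 and KRT4. KRT6B, a near copy of KRT6A, was at 2.33 (53 reads), -0.92 (5 reads) and 6.66 (2274 reads) in that order, and so followed KRT6A in both comparisons. How reads shared by KRT6A and KRT6B were assigned was not stated, so KRT6B is no separate check on KRT6A. The hair keratin KRT83 was at 4.49 (194 reads) and 6.25 (593 reads) under LIEA but at 0.96 (36 reads) in Smart-seq2, 11.5-fold below HBE LIEA. KRT85 was at 1.48, 2.93 and 0.71, and KRT16, the usual partner of KRT6A, was at 0.72, -0.83 and 1.05 with at most 35 reads.

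Differentiation keratins outside the 10 showed their own differences. KRT4, a type II keratin of the mucosa, had 4 reads in HBE LIEA and 510 in A549 (log2 difference 7.14, 5.78 to 9.02), and 112 in Smart-seq2 (3.71, 2.31 to 5.61). KRT10, the type I keratin of differentiating epidermis, had 26 reads in HBE LIEA, 115 in A549 (2.29, 1.67 to 2.97) and 526 in Smart-seq2 (3.24, 2.67 to 3.87). KRT20, a keratin of gut epithelium, was listed in A549 alone with 27 reads, at least 9.98-fold above HBE. Smart-seq2 showed KRT13, the mucosal partner of KRT4, with 458 reads against 5 (5.42, 4.19 to 7.05), KRT23 with 319 against 1 (7.22, 4.73 to 12.53), KRT35 with 109 against 4 (3.67, 2.27 to 5.57) and KRT34 with 39 against none. KRT78 had 6 reads in HBE LIEA and 36 in Smart-seq2 (1.49, 0.23 to 3.03) and was not listed in A549. KRT222, a keratin-like gene, had 6 reads in HBE LIEA, 3 in A549 and none in Smart-seq2. Of 10 other keratins past the level of 1 rpkM in the line comparison, 3 were higher and 1 was lower by at least 4-fold, with a median of 1.40, against 10.4% and 7.53% of all genes. Of 14 in the method comparison, 7 were higher against 5.54% of all genes, and 2 were lower, near the 15.1% of all genes, with a median of 2.05. Between the methods, KRT13, KRT23, KRT34, KRT35, KRT4 and KRT78 passed the level filter only through Smart-seq2, and KRT222, which was lower, only through LIEA. Between the lines, KRT20 and KRT4 passed it only through A549, and KRT6B, KRT16 and KRT222 only through HBE. These counts and medians therefore follow in part from the filter. Counts of 1 to 6 reads make several of these sizes loose, as their intervals show.

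**Figure D5:**
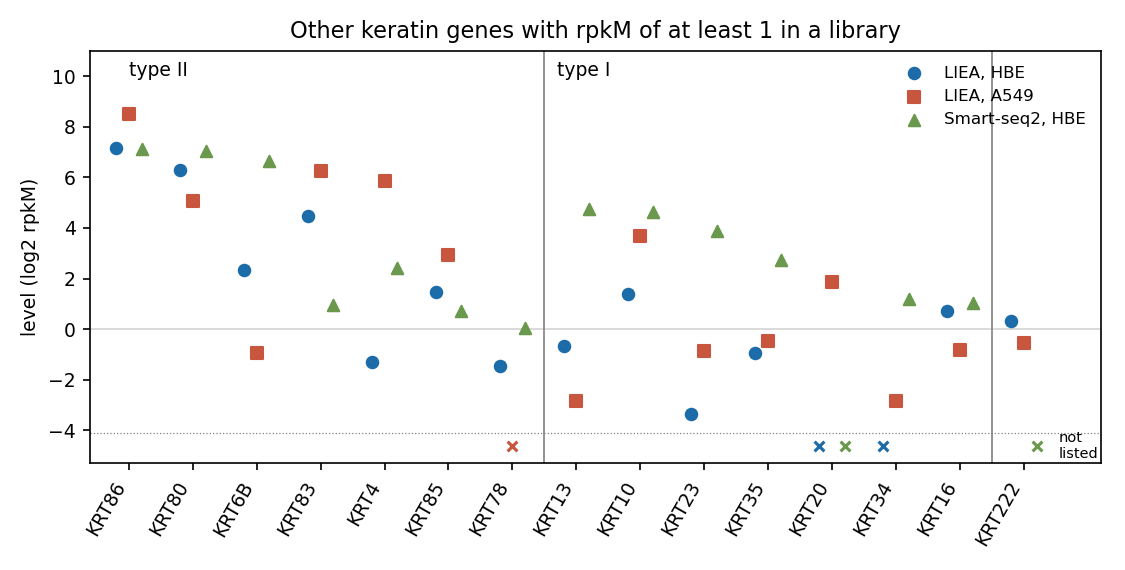
Level of the 15 other keratin genes that reached 1 rpkM in at least 1 library (vertical axis, log2 rpkM), by type, with KRT222, which was placed in neither type, on the right, 1 point per library and a cross where a gene was not listed. KRT86 and KRT80 lie above 5 in all 3 libraries, and KRT6B lies at 2.33 in HBE LIEA and at 6.66 in Smart-seq2.

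Proteins that tie keratin filaments to desmosomes and hemidesmosomes were examined as a list of 17 genes. In A549 against HBE, 9 of 16 past the level filter were lower by at least 4-fold against 7.53% of all genes, none was higher against 10.4%, and the median was -2.07. The hemidesmosomal collagen COL17A1 had 2677 reads in HBE LIEA and 18 in A549 (-7.07, -7.82 to -6.40), and the basal desmosomal cadherin DSG3 448 and 8 (-5.66, -6.88 to -4.67). The plakin EPPK1, a keratin-binding protein, had 454 and 7 (-5.87, -7.19 to -4.82). COL17A1, DSG3 and EPPK1 passed the level filter only through HBE. Smaller differences were seen for the plakophilins PKP3 (-2.74) and PKP2 (-2.63), the plakin PPL (-2.35), desmoplakin DSP (-2.12), desmocollin DSC2 (-2.09) and integrin ITGA6 (-2.05). The last 3 were at -1.95, -1.93 and -1.88 relative to the median of genes with at least 1 rpkM in both libraries. PLEC (0.56, 0.50 to 0.61) and JUP (0.58, 0.52 to 0.64) lay on the higher side, and the remaining genes were lower by less than 4-fold. Between the methods, 2 of 16 were lower in Smart-seq2, EVPL (-2.07) and ITGB4 (-2.27), which is near the 15.1% of all genes, none was higher, and the median was -0.58.

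Intermediate filaments other than keratins were examined as a list of 13 genes, of which 12 were listed. Between the lines 8 passed the level filter, of which 4 were higher in A549 by at least 4-fold against 10.4% of all genes, and none was lower by that much against 7.53%, with a median of 2.23. The 4 higher genes, VIM, SYNM, NEFL and INA, passed the filter only through A549. Their count and the median therefore follow in part from the filter. The lamin genes LMNB2 and LMNB1 and the filament gene NES lay on the lower side, at -1.75, -0.60 and -0.09. VIM, the filament protein of mesenchymal cells, had 4279 reads in A549, at log2 rpkM 8.91, and was not listed in either HBE library, which made it at least 1581-fold higher under LIEA. SYNM, which joins vimentin filaments, had 2 reads in HBE and 489 in A549 (8.08, 6.22 to 11.13). The neuronal filament genes INA and NEFL had 160 and 34 reads in A549 and none in HBE LIEA. In A549, VIM thus lay below KRT8, KRT18, KRT7 and KRT81 and above KRT19 in level. Of 4 such genes past the filter between the methods, 1 was lower in Smart-seq2 by at least 4-fold where 15.1% of all genes were, NES with 40 reads in LIEA and none in Smart-seq2, at least 28.5-fold. NES passed the filter only through LIEA.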

How the data were processed

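HBE was measured by LIEA and by Smart-seq2, and A549 by LIEA, with 1 library analysed for each from 10 pg of polyA+ mRNA. The authors mapped reads with FANSe2 to RefSeq-RNA, allowing more errors for Ion Torrent reads, merged splice variants and deposited log2 rpkM per gene without a pseudocount. The labels name hg19. The rpkM was the power of 2 of the deposited log2 value, and totals and whole reads were recovered from ratios of values. The share of 300 genes that gave whole lengths was 89.3%, and recovered reads summed to 100.3%, 100.2% and 99.2% of the totals. A common factor per gene was set by annotated transcript length, and was above 1 for 1810 of 18856 genes. Of the members, only KRT14 had one, of 4. No whole solution was found for 16 genes. In each library 4 rows with repeated names were left out, as were 1589 blank rows in Smart-seq2. The recovery was tested on simulated data. Each simulated gene was given its true length, so the choice of the common factor among several annotated lengths was not tested.

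Differences are of log2 rpkM. Genes with at least 1 rpkM in 1 of the libraries compared entered the counts, a call was a difference of at least 4-fold, and an unlisted gene was set to 3 reads. A gene could thus enter only through the library where it was high, which applies to the 10 keratins, to the lists and to all genes. Intervals at the 95% level were exact Poisson for levels and exact conditional binomial for differences, and by a normal approximation for shares and ratios. Per 1000000 mapped reads, 3 reads were 0.651 in HBE LIEA, 0.722 in A549 and 0.305 in Smart-seq2. With 1 library per condition analysed here no test was run. Named genes were the 10 keratins, other keratins with at least 1 rpkM in a library, and genes of 3 lists (other intermediate filaments, filament linkers, and keratin regulators and partners) past 4-fold, of which 1 is not reported here by name. Some genes below 4-fold that lay against the main direction of a list were also named. Members and lists were chosen with earlier results of these data known. Sequences, coordinates and GC content came from the GENCODE annotation on GRCh37. Computations used Python 3.11.15, numpy 2.4.6, pandas 2.3.3, scipy 1.17.1, matplotlib 3.10.9 and biopython 1.88. Alternatives were another pseudocount, centring, equal sums, other level filters, a 2-fold call, recovered reads, and leaving out members.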

Additional observations from a re-analysis of the deposited data

How the results depend on the processing

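No paired analysis was possible because only 1 library per condition was analysed here. None of 60 keratin differences under another pseudocount, centring on the median or scaling to equal sums turned its direction, 19 moved beyond their counting interval, 3 were of the KRT14 bound in A549, which has no interval, and 2 crossed 4-fold, both for KRT14 between the methods. The count of genes past 4-fold depended on the filter and the scale. For A549 against HBE it was 2450 as reported, 779 with at least 1 rpkM in both libraries, 1441 on log2(rpkM + 1) and 5516 at 2-fold. For Smart-seq2 against LIEA it was 2645, and 1505, 1497 and 6455 under the same alternatives. The basal share without KRT8 and KRT18 was 62.6% in HBE LIEA, 0.404% in A549 and 86.1% in Smart-seq2, and it was 60.9% in Smart-seq2 without KRT6A. In recovered reads it was 44.8% in HBE LIEA and 61.7% in Smart-seq2. The ratio of type II to type I keratins over all keratin genes was 1.22 in HBE LIEA, 1.79 in A549 and 0.591 in Smart-seq2, and in recovered reads, without correction for length, 1.45, 2.26 and 0.712. Without KRT81, an alternative chosen after seeing the data, it was 0.795, 1.32 and 0.337. In all, 45 of 88 alternative values stayed within the counting interval or within 1.5 times the count, and 43 did not or had no interval. Basal keratins in A549 rest on at most 35 reads, which limits the precision of their differences.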

Other observations

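Of 24 transcription factors and partners linked to keratins, 22 were listed. In A549 against HBE under LIEA, 18 passed the level filter, 2 were higher by at least 4-fold, near the 10.4% of all genes, 5 were lower against 7.53% of all genes, and the median was -0.68. GRHL2, an epithelial transcription factor, had 516 reads in HBE LIEA and was not listed in A549, at least 155-fold lower, while it had 500 reads in HBE Smart-seq2. Its relative GRHL1 had 100 and 9 reads (log2 difference -3.32, -4.50 to -2.34), whereas GRHL3 had 4 and 29 (3.01, 1.50 to 4.98). TRIM29, known from basal and squamous cells, had 1637 and 84 reads (-4.14, -4.47 to -3.82). EHF, an epithelial ETS factor, was lower (-2.49, -2.79 to -2.20), as was FLG, the filament-aggregating protein of the epidermis (-2.56, -3.37 to -1.84). GRHL1, GRHL2 and FLG passed the level filter only through HBE, and GRHL3 only through A549. KLF4, a factor of epithelial differentiation, was higher, with 21 and 133 reads (2.81, 2.14 to 3.55). ELF3, another epithelial ETS factor, was at 1.92, and at 2.09 relative to the median of genes with at least 1 rpkM in both libraries. It was named after its values were seen.

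Between the methods in HBE, 20 passed the filter, with 3 higher in Smart-seq2 against 5.54% of all genes, 4 lower against 15.1%, and a median of -0.35. GRHL3 (4 against 74 reads), SPRR1B (4 against 35) and SPRR2A (0 against 32), the last 2 being components of the cornified envelope, were higher in Smart-seq2. FAM83H, a protein that binds keratins, had 1979 reads in LIEA and 132 in Smart-seq2 (-5.00, -5.27 to -4.75), the largest difference of this list that was not a bound. FLG had 118 and 25 (-3.33, -4.02 to -2.70), and KRTCAP3 7 and 1 (-3.90, -9.40 to -0.94). GRHL3 and SPRR2A passed the level filter only through Smart-seq2, and FLG and KRTCAP3 only through LIEA.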
